A study of Caenorhabditis elegans with 2 samples.

Results

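The 270 nuclear tRNA genes of chromosomes II, III, IV and V of Caenorhabditis elegans were examined for binding of the tagged protein ZIM-3-GFP by chromatin immunoprecipitation and sequencing (ChIP-seq). They were all genes of biotype tRNA on those chromosomes in Ensembl release 115, and made up 270 of the 612 nuclear tRNA genes. There were 57 on II, 64 on III, 71 on IV and 78 on V. The other tRNA genes lay on X (276 genes) and on I (66 genes).

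ZIM-3 is a zinc finger protein known for binding the pairing centres of chromosomes I and IV, the sites through which homologous chromosomes find each other in meiosis. Whole animals of strain OP581, genotype unc-119(tm4063) III; wgIs581, were used. All carried the unc-119 allele and an integrated transgene for ZIM-3 whose C-terminal end was fused to GFP and FLAG, and precipitation was with an antibody against GFP by the samples' description. Their antibody entry instead reads zim-3, so the labels disagree on whether the tag or the protein was targeted. The worms were young adults of mixed sex, taken 54.5 h after starved L1 larvae were released, and formed 1 group with 2 biological replicates. No untagged or input sample was analysed here, so no value below is a difference between conditions, and whether an untagged strain would give regions at the same genes was not tested. In whole animals, a signal in many cells and a stronger one in few cells cannot be told apart.

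tRNA genes are transcribed by RNA polymerase III from promoters that lie inside the gene. The factor TFIIIC recognises the A box in the first part of the gene and the B box in the last part, and then places TFIIIB just upstream of the start. Transcription ends at a run of T residues after the gene. In worms, as in other animals, many anticodons are encoded by a family of genes, many of them identical copies scattered over the genome.

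The gene sequences below are shown because they carry the highest values or are the copies compared further on. They were read on the sense strand from the RefSeq copy of WBcel235, and capitals mark the A box and the B box. F29C4.t1 (Arg-CCT, chrIV:143982-144054, plus strand) was the highest of all, F10C1.t1 (Gly-GCC, chrII:5782212-5782282, minus strand) the highest of II, and K06A4.t1 (Ala-CGC, chrV:9503562-9503633, plus strand) the highest of V. F57F5.t1 (Ile-TAT, chrV:12002176-12002260, plus strand) and C14B9.t2 (Leu-CAA, chrIII:8109603-8109724, plus strand) contain an intron between the boxes. T23F1.t1 (Lys-TTT, chrV:15465086-15465158, plus strand), T23F1.t2 (Pro-TGG, chrV:15465225-15465296, minus strand) and F15B9.t1 (Ala-AGC, chrV:13003509-13003580, minus strand) each stand for many identical genes. C06B8.t2 (Tyr-GTA, chrV:15480694-15480777, plus strand) was the highest of a family in which no gene reached the reproducible list.
F29C4.t1: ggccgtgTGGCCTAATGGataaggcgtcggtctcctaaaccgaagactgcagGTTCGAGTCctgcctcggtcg
F10C1.t1: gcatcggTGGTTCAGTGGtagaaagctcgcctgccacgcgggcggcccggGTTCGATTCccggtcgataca
K06A4.t1: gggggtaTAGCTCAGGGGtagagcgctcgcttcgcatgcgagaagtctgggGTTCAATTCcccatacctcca
F57F5.t1: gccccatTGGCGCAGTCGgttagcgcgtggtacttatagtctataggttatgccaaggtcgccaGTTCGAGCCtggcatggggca
C14B9.t2: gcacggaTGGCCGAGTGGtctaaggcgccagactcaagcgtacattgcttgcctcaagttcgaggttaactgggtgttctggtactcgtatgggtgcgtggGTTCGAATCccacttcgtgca
T23F1.t1: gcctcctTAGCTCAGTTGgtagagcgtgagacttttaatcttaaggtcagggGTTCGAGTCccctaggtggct
F15B9.t1: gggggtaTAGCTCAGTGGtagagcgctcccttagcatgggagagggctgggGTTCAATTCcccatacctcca
T23F1.t2: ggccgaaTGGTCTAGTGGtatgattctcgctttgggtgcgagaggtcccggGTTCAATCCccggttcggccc
C06B8.t2: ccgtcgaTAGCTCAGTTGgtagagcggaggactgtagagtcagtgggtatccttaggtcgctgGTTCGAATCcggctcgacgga

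The B box letters searched were GTTCNANNC on the sense strand within the last 40 bases, and the A box was searched by its tRNA consensus starting within the first 30 bases. The A box was found in 258 of the 270 genes (95.6%) and the B box in 259 (95.9%). A run of 4 T residues within 30 bases after the gene was found in 268 (99.3%). All 3 elements were present in 248 genes (91.9%), against 319 of the other tRNA genes (93.3%). A match describes letters only.

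Binding was read from lists of regions that the authors deposited for the ce11 assembly, which is WBcel235. Each replicate had a list of 30000 regions, the pooled reads of both replicates gave another 30000, and a further list held the 906 regions that passed the authors' irreproducible discovery rate (IDR) procedure. These 906 were the highest-signal regions of the pooled list. A gene was counted as having a region when a summit lay within 500 bp of it, and its signal was the highest among such regions, in the authors' units. Signal scales differ between lists, so replicates are compared by rank, where rank 1 is the highest signal. The depth of the libraries is unknown. Intervals are 95% Clopper-Pearson intervals over genes and cover counting error only.

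Of the 270 genes, 102 had an IDR summit within 500 bp, or 37.8% (32% to 43.9%). Across all 46890 annotated genes the same rule gave 3.47%. The count in the same rank range of a single replicate was similar: 96 genes (35.6%) lay near the 906 highest regions of replicate 1, where the share of all genes was 3.43%, and 86 (31.9%) near those of replicate 2, where it was 3.30%. Of the genes, 68 (25.2%) were among the highest regions of both replicates and 156 (57.8%) of neither. For tRNA genes on X these shares were 30.8% and 48.2%, and for those on I 10.6% and 65.2%. No share over all genes was computed for either count. By gene class, the IDR rule gave 21.1% of small nucleolar RNA genes, 11.6% of small nuclear RNA genes and 4.45% of protein-coding genes. It gave 0.215% of the 15363 genes of germline small RNAs (piRNAs), which lower the share of all genes.

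Most of the remaining genes had a weaker region. A pooled region of any height lay near 216 of the 270 genes (80%), against 40.2% of all genes. A replicate 1 region lay near 220 (81.5%), against 40.7% of all genes, and a replicate 2 region near 208 (77.0%), against 39.9%. Thus 114 genes (42.2%) had a pooled region outside the IDR list. A region in all 3 lists of 30000 was found at 192 (71.1%), and none in any of them at 36 (13.3%). For tRNA genes on X the 3 shares were 41.3%, 83.0% and 6.88%, and for those on I 42.4%, 66.7% and 13.6%. No share over all genes was computed for these counts. A pooled region also lay near 63.9% of protein-coding genes and 66.5% of small nucleolar RNA genes. The share of all genes is lowered by the 15363 piRNA genes, of which 6.17% had one.

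The pooled signal at the 216 genes ran from 50.8 to 380.8 with a median of 134.1, which was 1.99 times the median of 67.4 over all pooled regions. The quartiles were 97.6 and 178.9. Among the 102 genes with an IDR summit the signal ran from 141.2 to 380.8 with a median of 181.1. The values formed a continuum across the limit of the list. Just inside it were ZC412.t1 (Phe-GAA) at 142.7, ZC412.t2 (Cys-GCA) at 141.3 and Y57A10C.t1 (Met-CAT) at 141.2. Just outside were Y53C12A.t1 (Phe-GAA) and Y7A9D.t3 (Val-AAC), both at 138.2, and C04A2.t1 (Leu-TAG) at 137.4.

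**Figure D1:**
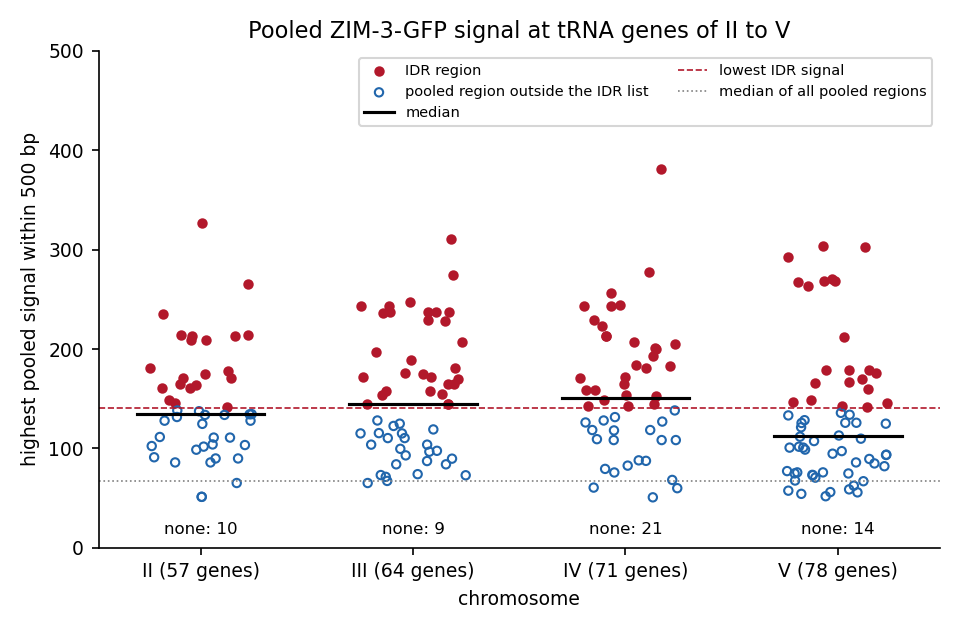
Highest pooled signal within 500 bp of each tRNA gene (authors' units) by chromosome, with filled points for genes with an IDR summit, open points for genes with a weaker pooled region, and the number of genes with no pooled region at the bottom. The dashed line is the lowest IDR signal (140.7), the dotted line the median of all pooled regions (67.4), and the bars are medians, from 112.4 on V to 150.4 on IV.

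The tRNA genes accounted for a sizeable part of the reproducible list, where their best rank was 33. The 102 genes lay near 89 IDR summits, or 15.1% of the 588 on II to V (12.3% to 18.3%), while 0.391% of the bases of those chromosomes lay within 500 bp of such a gene. Median signal was 180.9 at these 89 summits and 173.2 at the other IDR summits of II to V, and the highest values were 380.8 and 818.0. By rank in the pooled list, tRNA genes lay near 6 of the 70 regions of II to V ranked 1 to 100 (8.57%) and near 31 of the 124 ranked 101 to 300 (25%). They lay near 52 of the 394 ranked 301 to 906 (13.2%). The share then fell to 46 of 1442 (3.19%) for ranks 907 to 3000, to 0.824% for ranks 3001 to 10000, and to 0.339% for ranks 10001 to 30000.

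IDR summits lay on or close to the genes. The median IDR summit was 31 bp from the gene's 5′ end, with quartiles at 0 and 64 bp, where the median gene was 72 bp long. It was at 12 bp over the 73 such summits among the highest regions of replicate 2 and at 32 bp over the 83 of replicate 1. Of the 89 summits, 49 (55.1%) were inside a gene, 22 upstream and 18 downstream. Within 100 bp of the gene were 87 of them (97.8%). The median IDR summit of tRNA genes on X was at 30 bp and that on I at 31 bp. Pooled summits of any height lay less close to the genes of II to V. Of these 218 summits, 91 (41.7%) were inside a gene and 176 (80.7%) within 100 bp. Nearly all regions had one fixed width, so a summit marks the middle of a fixed interval.

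**Figure D2:**
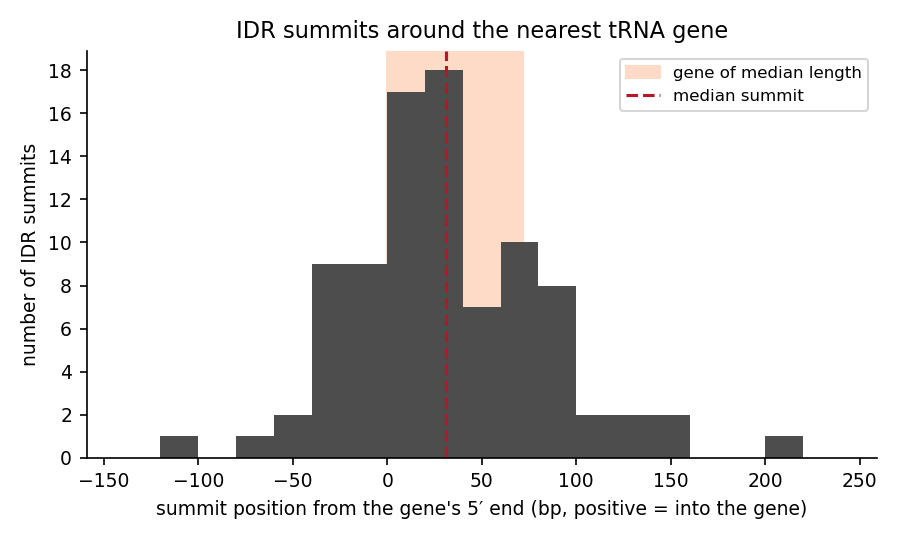
Number of IDR summits by their position relative to the 5′ end of the nearest tRNA gene on II to V (bp, positive into the gene). The shaded band is a gene of the median length of 72 bp and the dashed line is the median position of 31 bp.

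The strongest genes coded for many different amino acids. F29C4.t1, an arginine tRNA gene on the opposite strand of the collagen gene col-99, had a pooled signal of 380.8 (rank 33) and ranked 52 in replicate 1 and 12 in replicate 2. F10C1.t1, a glycine tRNA gene outside any protein-coding gene, had 326.8 and ranked 60 in replicate 1 and 76 in replicate 2. The tryptophan tRNA gene sup-5, known for mutations that suppress amber nonsense codons, had 310.7 and ranked 94 in replicate 1 and 78 in replicate 2. It lies within fli-1 on the same strand (chrIII:8678497-8678568). K06A4.t1 (Ala-CGC) had 303.2, with ranks of 91 and 81 in replicates 1 and 2. Among the genes with an IDR summit, these 4 were the ones within the best 100 regions of both replicates. F57F5.t1 (Ile-TAT) had 302.4, with ranks of 140 and 40.

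The next genes in order were ZC455.t1 (Ser-TGA, 292.3), K02D7.t1 (Asp-GTC, 277.9), C14B9.t2 (Leu-CAA, 274.1) and F15B9.t1 (Ala-AGC, 270.8). They ranked between 86 and 144 in replicate 1 and between 163 and 200 in replicate 2. T23F1.t1 and T23F1.t2, a lysine and a proline tRNA gene on opposite strands, shared 1 summit with a signal of 268.2. F53F8.t1 (Cys-GCA, 267.4), F35H8.t1 (Arg-TCG, 265.8), T03E6.t1 (Gln-CTG, 263.0) and Y105C5B.t1 (Asp-GTC, 256.4) completed the 15 highest. Among the 15, the worst rank was 177 in replicate 1 and 200 in replicate 2. The gene for the selenocysteine tRNA, K11H12.t1, had a pooled signal of 171.1 with ranks of 572 and 771. Its summit lay at -76 bp from its 5′ end, and a protein-coding transcript start was 75 bp from the gene. The region may equally be assigned to that start.

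The replicates ordered the genes alike in broad terms. Over the 195 genes that had a region in both replicate lists, Spearman's rho between their 2 ranks was 0.72. Over the 102 genes with an IDR summit it was lower, at 0.54. Both values describe genes of the same 2 libraries and include genes that share a summit. Of the 102 genes with an IDR summit, all 102 had a replicate 1 summit and 101 a replicate 2 summit within 200 bp of it. Both replicate lists went into the IDR list, so these matches were largely fixed in advance. The matched summit was among the 906 highest for 91 genes (89.2%) in replicate 1 and for 76 (74.5%) in replicate 2. Replicate 1 gave the better rank for 62 of the 102. The worst rank among them was 1538 in replicate 1 and 8595 in replicate 2, at Y65A5A.t2 (Ala-AGC). The smallest p that a permutation over 2 replicates allows is 0.5, so no test was made across them.

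**Figure D3:**
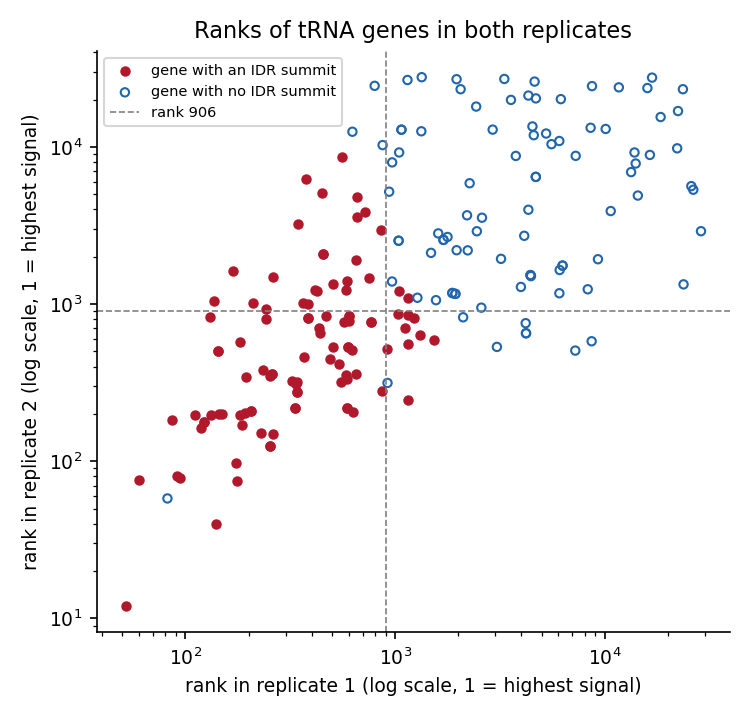
Rank of each tRNA gene of II to V with a region in both replicate lists, in replicate 1 (x, log scale) and replicate 2 (y, log scale), where 1 is the highest signal and dashed lines mark rank 906. Filled points are genes with an IDR summit, and the open point at ranks 82 and 58 is F44A2.t1.

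One gene was high in both replicates and absent from the IDR list. F44A2.t1, a single-copy alanine tRNA gene (Ala-CGC, chrV:9318202-9318273, plus strand), ranked 82 in replicate 1 and 58 in replicate 2, with summits 42 and 65 bp from its start. The nearest protein-coding transcript start was 38 bp from the gene. In the pooled list its best region had a signal of 75.9 and rank 10292, with the summit 237 bp from its start. Across the genome, 498 summits were among the 906 highest in both replicates, and 4 of them, this one included, had no IDR summit within 200 bp. F44A2.t1 was singled out after its values were seen, and it is counted here as a gene without an IDR summit.

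By chromosome, the share with an IDR summit was 36.8% on II (21 of 57 genes, 24.4% to 50.7%), 46.9% on III (30 of 64, 34.3% to 59.8%), 40.8% on IV (29 of 71, 29.3% to 53.2%) and 28.2% on V (22 of 78, 18.6% to 39.5%). All these intervals overlap. The median pooled signal was 134.5 on II, 145.1 on III, 150.4 on IV and 112.4 on V. Genes with no region in any list were 7 of 57 on II, 4 of 64 on III, 16 of 71 on IV and 9 of 78 on V.

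The genes of IV without a region were mostly among piRNA genes, the short transcription units of germline small RNAs of which 95.8% in the annotation are on IV. The 40 genes with 10 or more piRNA genes within 10 kb, all on IV between 4.86 and 16.8 Mb, included 13 with no region in any list (32.5%), against 3 of the other 31 genes on IV (9.68%). An IDR summit was found at 13 of the 40 (32.5%, 18.6% to 49.1%) and at 16 of the other 31 (51.6%, 33.1% to 69.8%), which are overlapping intervals. Where a pooled region was present, its median signal was 142.9 among piRNA genes and 165.1 elsewhere on IV. Sequence that occurs more than once in the genome was somewhat commoner there: under 80% of the 32-base words within 200 bp were unique at 9 of the 40 genes (22.5%) and at 2 of the 31 (6.45%), with medians of 87.9% and 87.8%. The part of repeated sequence in the missing regions was not tested, and this grouping was chosen after the values were seen.

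The 2 largest clusters, groups of neighbours within 2 kb, were both on the right side of IV. At chrIV:15931342-15933424, the aspartate genes Y105C5B.t4 (229.1) and Y105C5B.t1 (256.4) had IDR summits. The glutamate genes Y105C5B.t3 and Y105C5B.t2 beside them shared a region of 118.5 that ranked 1071 in replicate 1 and 12868 in replicate 2. At chrIV:16398384-16400967, the alanine genes Y65A5A.t1 (204.7) and Y65A5A.t2 (154.1) and the histidine gene Y65A5A.t4 (199.9) had IDR summits, while the valine gene Y65A5A.t3 between them had 128.1. Most genes were alone: 178 had no neighbour within 2 kb, and 36 clusters were pairs.

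Anticodon families differed in how many genes had an IDR summit, and several of these counts depended on 1 replicate. The anticodon could be read from the sequence and matched the RefSeq amino acid in 260 of the 270 genes (96.3%), in 47 families, of which 23 had at least 5 genes on II to V. None of the 10 unmatched genes had an IDR summit, and 4 of them had a pooled region. At least 1 IDR summit was found in 38 of the 47 families. Of the 23 larger families, 20 were mixed, 1 had an IDR summit at every gene and 2 had none.

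The full family was Glu-CTC, with 5 of 5 genes. Their pooled signals were 237.3 at Y22D7AL.t4, 196.7 at ZK783.t1, 174.6 at rte-4, and 157.6 at both M01E10.t1 and M01E10.t2, which share a summit. The summit of Y22D7AL.t4 was shared with the methionine gene Y22D7AL.t3 and lay nearer to that gene. All 5 were near the 906 highest regions of replicate 1, but 3 of 5 near those of replicate 2. The smaller families Cys-GCA (4 of 4) and Val-CAC (4 of 4) were also full, and each had 3 of 4 genes near the highest regions of replicate 1 and 2 of 4 near those of replicate 2. Arg-TCG (2 of 2) and Sec-TCA (1 of 1) were full too. Among families of at least 5 genes, the next on the IDR list were Arg-ACG (3 of 5 genes, 60%), Ala-AGC (7 of 12, 58.3%), Asp-GTC (7 of 14, 50%) and Thr-AGT (5 of 10, 50%). Lys-CTT had 5 of 11 (45.5%) and Lys-TTT 4 of 9 (44.4%). Thr-AGT and Lys-CTT were partly called at the same summits, each nearer to the lysine gene. The pairs were W10G11.t2 and W10G11.t1, C16C8.t2 and C16C8.t1, and W09G10.t3 and W09G10.t2. With the highest regions of replicate 2, Ala-AGC had 3 of 12, Lys-CTT 3 of 11 and Lys-TTT 2 of 9, while Asp-GTC kept its count at 7 of 14. With those of replicate 1, Arg-ACG had 2 of 5, and Ala-AGC, Lys-CTT and Lys-TTT had the counts of the IDR list.

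The empty families were Tyr-GTA (0 of 10, an interval up to 30.8%) and Val-AAC (0 of 6). Near the highest regions of a single replicate, Tyr-GTA had 0 of 10 in both and Val-AAC 1 of 6 in each. Among the tyrosine genes, 6 had a pooled region, of 128.4 at C06B8.t2, 102.4 at ZK1067.t1, 99.6 at T22F7.t1, 96.7 at Y43F4A.t1, 89.4 at C18D4.t1 and 67.0 at C16D9.t4. The other 4 tyrosine genes, R148.t1, F36D4.t1, C47E8.t1 and F31E9.t1, had no region in any list. Among the Val-AAC genes, 5 had a pooled region, from 103.8 at T28D6.t1 and T28D6.t2 to 138.2 at Y7A9D.t3, and Y73F8A.t1 had none. All 10 tyrosine genes carry an intron, as do 6 other genes on II to V. Of the 16 intron-bearing genes, 4 had an IDR summit (25%, 7.27% to 52.4%), against 98 of the 254 without one (38.6%, 32.6% to 44.9%). Those 4 were all among the 6 intron-bearing genes outside the tyrosine family. The lower share of the 16 thus restates the empty tyrosine family. The 4 were the leucine genes C14B9.t2 (274.1), ZK822.t1 (180.9) and F22B7.t1 (174.7) and the isoleucine gene F57F5.t1 (302.4). An IDR summit was found at 3 of the 4 methionine genes with C before the anticodon, as in the initiator tRNA of vertebrates, and at 2 of the 4 with T there.

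**Figure D4:**
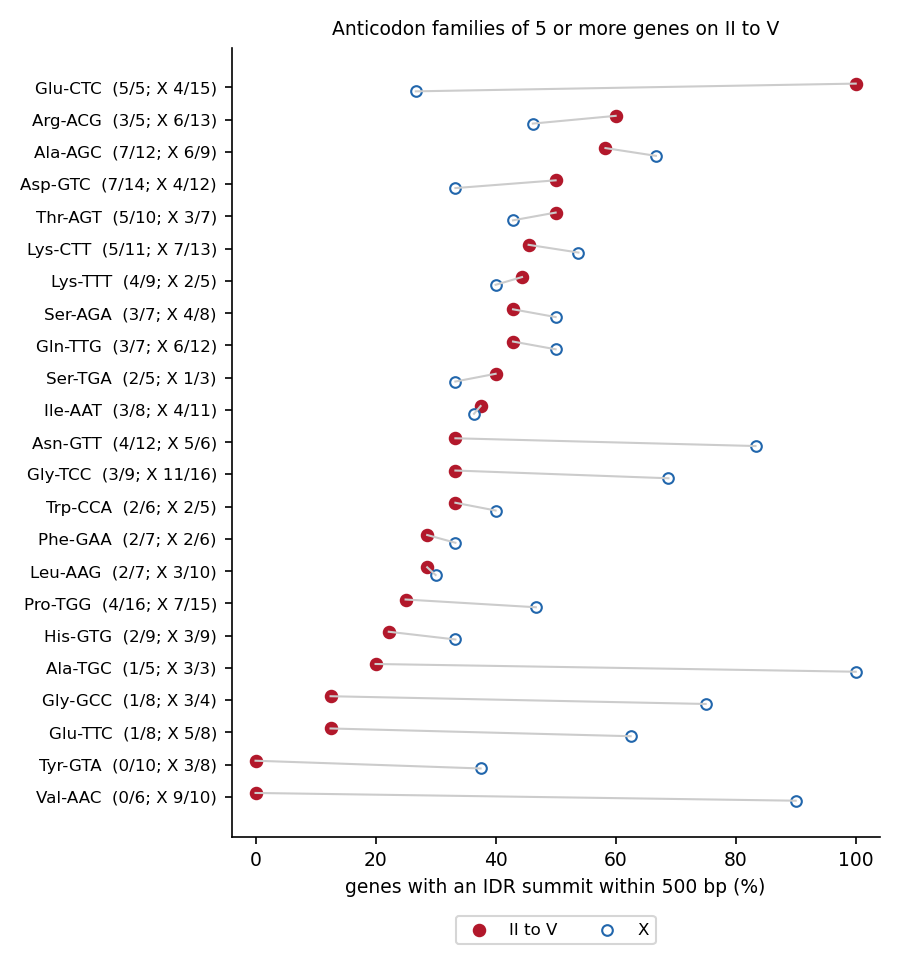
Percentage of genes with an IDR summit within 500 bp in the 23 anticodon families with at least 5 genes on II to V (filled), with the same family on X beneath (open) and the counts in the labels. On II to V the families run from Val-AAC and Tyr-GTA at 0 to Glu-CTC at 100%.

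Identical genes often did not share the same outcome. The 270 genes had 123 distinct sequences. Of these, 37 occurred at least 2 times on II to V and covered 184 genes. In 24 of the 37 sequences (146 genes) some copies had an IDR summit and others did not, in 5 all copies had one and in 8 none had.

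The 9 copies of the Lys-TTT gene printed above for T23F1.t1 gave pooled signals of 268.2 at T23F1.t1, 214.3 at F49C5.t4, 171.7 at K04C2.t3, 148.2 at C09B9.t1, 134.3 at F18C5.t1, 133.9 at Y70C5A.t1, 93.7 at ZK994.t2 and 73.0 at ZK994.t1. The ninth, W07G4.t1, had no region in any list. Of the 11 copies of the Pro-TGG gene, 4 had an IDR summit. They were T23F1.t2 (268.2), W09D6.t1 and W09D6.t2 with a shared summit (243.6), and F02H6.t1 (142.8). R11G10.t2, with the same sequence, had no region in any list, and its neighbour R11G10.t1 had 73.4. Of the 8 copies of the Ala-AGC gene, 6 had an IDR summit, from 143.0 at Y7A9D.t2 to 270.8 at F15B9.t1. The 2 others, M03A1.t1 and C52E12.t3, had 133.7 and 85.9.

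The tryptophan genes behaved likewise. The sequence of sup-5 occurs at 5 genes on II to V. The pooled signal was 310.7 at sup-5, 152.5 at rtw-6 and 88.0 at Y4C6B.t2. For sup-29 the only region was in the replicate 2 list, at rank 15543, and sup-24 had no region in any list. The last 2 genes are known, like sup-5, as loci of amber suppressors.

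**Figure D5:**
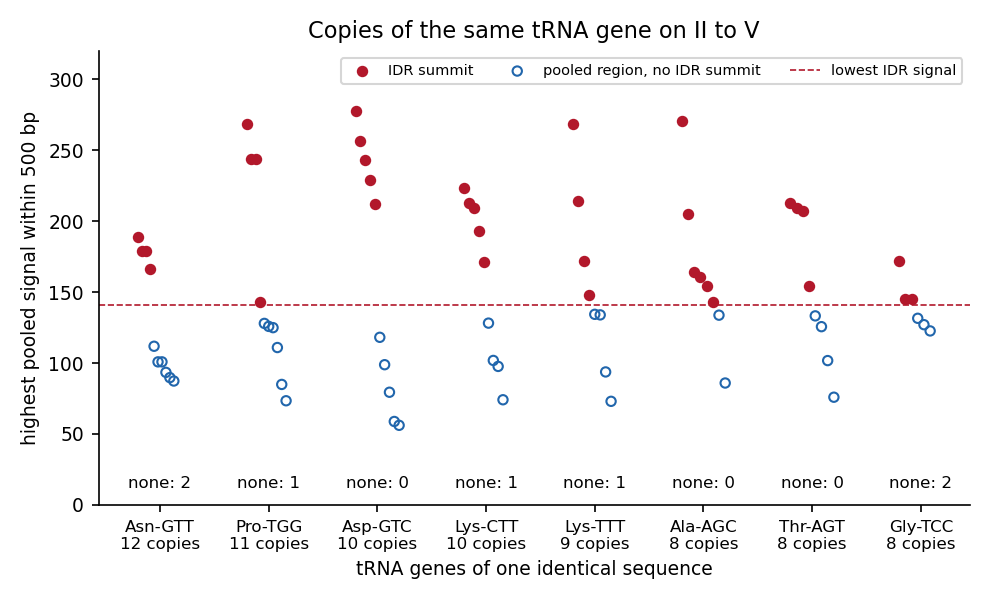
Highest pooled signal (authors' units) at each copy of the 8 tRNA gene sequences with at least 8 copies on II to V, with filled points for copies with an IDR summit, open points for copies with a weaker region, and the number with no pooled region at the bottom. In each of the 8 sequences copies lie on both sides of the dashed line, the lowest IDR signal (140.7).

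The sequence around such copies varied. The 60 bases upstream of 4 Lys-TTT copies are printed here, the 2 with the highest signal first, then ZK994.t1 with 73.0 and W07G4.t1 with no region. They lie at chrV:15465026-15465085 (plus strand), chrII:12541761-12541820 (minus strand), chrV:8495242-8495301 (plus strand) and chrV:13027101-13027160 (minus strand).
T23F1.t1 upstream: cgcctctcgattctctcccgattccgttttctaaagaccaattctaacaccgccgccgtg
F49C5.t4 upstream: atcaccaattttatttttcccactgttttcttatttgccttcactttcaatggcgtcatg
ZK994.t1 upstream: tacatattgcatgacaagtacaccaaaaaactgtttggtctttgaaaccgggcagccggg
W07G4.t1 upstream: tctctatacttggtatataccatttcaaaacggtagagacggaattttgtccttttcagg
Over all 36 pairs of the 9 copies, 9 to 42 of the 60 upstream bases were identical in place, with a median of 19.0. For the 28 pairs of Ala-AGC copies the range was 15 to 33 and the median 21.0. For the 55 pairs of Pro-TGG copies the range was 8 to 57 and the median 19.0, so some of their upstream sequences were nearly identical. Whether flanking sequence is tied to the signal was not tested.

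The share was lowest among single-copy genes and highest among genes with many identical copies in the genome, with overlapping intervals. An IDR summit was found at 27.0% of single-copy genes (20 of 74, 17.4% to 38.6%), at 35.5% of genes with 2 to 4 copies (11 of 31, 19.2% to 54.6%) and at 43.0% of those with 5 or more (71 of 165, 35.4% to 51.0%). The median share of unique 32-base words was 87.9% at genes with an IDR summit, 87.7% at genes with a weaker pooled region and 89.1% at genes with no pooled region. The lower tail differed. Among the 36 genes with no region in any list the lower quartile was 70.9%, and 13 of them (36.1%) were under 80% unique. The lower quartile was 86.2% at genes with a weaker pooled region, where 14 of 114 (12.3%) were under 80%, and 86.5% at genes with an IDR summit, where 17 of 102 (16.7%) were. The part of repeated sequence in the absence of a region was not tested.

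Shares were close to each other across gene settings. An IDR summit was found at 45 of the 115 genes outside protein-coding genes (39.1%), at 33 of the 92 inside one on the same strand (35.9%) and at 24 of the 63 on the opposite strand (38.1%). It was found at 33 of the 80 genes whose nearest protein-coding transcript start was within 500 bp (41.2%) and at 69 of the 190 others (36.3%). Near another tRNA gene the count was 26 of 54 (48.1%, 34.3% to 62.2%), against 76 of 216 (35.2%, 28.8% to 42%). Close neighbours can share a summit, as 26 of the 102 genes did. Of the 102 genes, 33 (32.4%) lay within 500 bp of a protein-coding start, where the region may equally be assigned to that start.

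Nearly all genes with an IDR summit had the internal promoter elements. The A box was found in 101 of the 102 genes with an IDR summit (99.0%), against 157 of the 168 without (93.5%). The B box was found in 99 (97.1%), against 160 (95.2%). Only 1 of the 12 genes with no A box match had an IDR summit (8.33%, 0.211% to 38.5%), as did 3 of the 11 with no B box match (27.3%, 6.02% to 61.0%). The 1 was the selenocysteine gene K11H12.t1, which lies 75 bp from a protein-coding transcript start. The 3 were the methionine genes T15B12.t1, Y22D7AL.t3 and Y57A10C.t1, which have C before the anticodon. Among the 36 genes with no region in any list, 30 had the A box, 33 the B box and all 36 the T run.

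The tRNA genes of II to V were less often on the list than those of X. The share was 37.8% on II to V and 47.5% on X, a difference of -9.7 percentage points (95% Newcombe interval -17.8 to -1.4). With the highest regions of replicate 1 it was -8.3 points (-16.3 to -0.1), and with those of replicate 2 it was -6.9 (-14.8 to 1.1), so the interval of replicate 2 includes 0. Genes that share a summit are counted separately, so these intervals are too narrow even as counting error over genes. All genes come from the same libraries, and no spread between animals was measured. Against the 33.3% of chromosome I (22 of 66 genes), which together with IV is a known chromosome of ZIM-3, the difference was 4.4 points (-8.8 to 16.2). With the highest regions of replicate 1 it was 8.3 points (-4.7 to 19.3), and with those of replicate 2 it was 13.7 (1.5 to 23.1), an interval above 0. It was -6.31 points on the IDR list without genes that share their sequence. The pooled signal was 134.1 in the median on II to V, 147.2 on X and 125.9 on I, and the highest value was 380.8 on II to V, 401.7 on X and 314.0 on I.

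Some families differed in count between II to V and X. Val-AAC had 0 of 6 genes on II to V and 9 of 10 on X. For the most frequent Val-AAC sequence it was 0 of 5 copies on II to V and 4 of 4 on X. Glu-TTC had 1 of 8 on II to V and 5 of 8 on X, and Gly-GCC 1 of 8 on II to V and 3 of 4 on X. Glu-CTC went the other way, with 5 of 5 on II to V and 4 of 15 on X. With the highest regions of replicate 2, Glu-TTC had 2 of 8 on II to V and 3 of 8 on X, so that little of its difference was left. There Gly-GCC had 3 of 8 on II to V and 4 of 4 on X, Val-AAC 1 of 6 on II to V and 7 of 10 on X, and Glu-CTC 3 of 5 on II to V and 4 of 15 on X. These pairs were picked after their values were seen and no test was made of them.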

How the data were processed

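ChIP-seq region lists of 2 biological replicates of 1 group were used, with their pooled list and IDR list, all on ce11. The signal of each region is a value that the authors deposited. According to the deposited file descriptions, alignments and a control file (not used here) went into each list, and the other 3 lists into the IDR list. For aligner, peak caller, versions and IDR threshold: not given in the sources used here. No read counts were used here, so depth and its precision are unknown.

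Summits (start plus offset) were assigned to genes of Ensembl release 115 within 500 bp, with names and amino acids from RefSeq. Shares carry 95% Clopper-Pearson intervals and differences Newcombe intervals. The assignment was tested on simulated summits. Python 3.11.15, pandas 2.3.3, NumPy 2.4.6, SciPy 1.17.1 and matplotlib 3.10.9 were used. Named genes were the 15 highest with a region in both replicates, the highest of each chromosome and of each family of at least 5, the 3 on each side of the IDR limit, the highest and lowest of the 2 largest clusters, and up to 3 examples of other gene lists. Others named (family members, identical copies, single genes) were chosen after their values were seen. The tRNA genes, lists and rules were chosen with earlier results of these data known. Alternatives were other distances, single replicates, the 453 highest IDR regions, joined loci, and leaving out genes of shared sequence or near other features. Lists on ce10 were not used here.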

Additional observations from a re-analysis of the deposited data

How the results depend on the processing

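The share of tRNA genes of II to V with an IDR summit (37.8%) was 22.2% when only the 453 highest IDR regions were used, where fewer regions are counted by construction. It was 27.0% without genes that share their sequence with another tRNA gene, where the share with any pooled region was 67.6% instead of 80%; the cause was not tested. With the 906 highest regions of a single replicate in place of the IDR list the share was 31.9% (replicate 2, just below the interval of the IDR share) or 35.6% (replicate 1). The difference to X kept its sign under all alternatives run. The difference to I was -6.31 points without genes of shared sequence (20 of 74 genes against 4 of 12 on I), instead of 4.4, and between 8.3 and 13.7 with a single replicate, so no direction can be given; the cause was not tested. Shares by chromosome, the median signal relative to the list's median, the median summit position and the replicate matches stayed within their intervals, quartiles or 1.5 times under the alternatives run for them, though the median position was 12 bp in place of 31 with replicate 2 alone. Among shares of families, settings, copy classes and elements, 6 of 78 values moved outside their interval (Ala-AGC to 25% among them), all with the highest regions of replicate 2 in place of the IDR list, and all lower. No paired analysis was possible because there is only 1 group. With 2 replicates, unknown depth and no control analysed here, weak or absent regions cannot be told from limited coverage.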

Other observations

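Other genes of the same machinery were counted by the same rule, an IDR summit within 500 bp. The RNAs of RNase P, the signal recognition particle and the Y RNA, which RNA polymerase III also makes, had one at 4 of 7 genes, with pooled signals of 637.6 at rpr-1 (the RNase P RNA, rank 7), 200.3 at srpr-2.1 and 174.5 at srpr-1.1. The 16 annotated 5S rRNA genes, another class of polymerase III genes that lie in a repeated array, had none, and 1 of them had a pooled region (75.7 at rrn-4.16). Of the 32 aminoacyl-tRNA synthetase genes, whose products charge tRNAs, 3 had an IDR summit (9.38%, 1.98% to 25%): fars-1 (281.2), ears-2 (232.6) and tars-1 (145.0). The share of all protein-coding genes was 4.45%, which lies within that interval. Of 11 genes for RNA polymerase III, TFIIIB and TFIIIC subunits, 1 had one, rpac-19 (166.5), with an interval of 0.230% to 41.3% that also holds 4.45%.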
